A study of Homo sapiens with 3 samples.

Results

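The small nucleolar RNA (snoRNA) host genes were followed across 3 RNA-seq libraries of T24, a human bladder carcinoma cell line. They were defined by name, as every gene of the deposited count table whose Ensembl identifier carries an SNHG symbol with a number, together with GAS5, ZFAS1 and EPB41L4A-AS1. This rule found 31 of the 58381 genes in the table. Of these, 28 had at least 10 counts in 1 library and were compared, and 23 had at least 100 counts in 1 library and are given by their values. SNHG28 had 0 counts in all 3 libraries, SNHG27 had 3 counts in Ctrl and 0 in the others, and SNHG18 had 5 (Ctrl), 2 (RT) and 6 (RT + shHDAC6), so these 3 were not compared.

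A snoRNA host gene carries snoRNAs inside its introns. After splicing, the intron is opened and trimmed back until only the snoRNA and its bound proteins remain, and the snoRNA then guides the chemical modification or the cleavage of ribosomal RNA or other RNAs. In most genes of this group the spliced exons are not known to encode a protein, and in several of them they form a short-lived RNA that ribosomes engage and nonsense-mediated decay removes. GAS5 was first known as a transcript that accumulates when growth stops, and ZFAS1, SNHG1, SNHG12, SNHG15 and SNHG16 have been described as long non-coding RNAs with raised levels in tumours.

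The libraries were Ctrl, which the labels give as treatment Empty, RT, which was irradiated, and RT + shHDAC6, which was irradiated and carried a short hairpin RNA against the deacetylase HDAC6. The labels describe lentiviral delivery of the hairpin or of a control pLKO.1 vector followed by puromycin selection, whereas the study's text also calls the comparator parental cells. They give 10 Gy from a 137Cs source for the irradiated cells and no time between irradiation and harvest. There was 1 library for each condition and no unirradiated knockdown library, so no difference has a replicate check and no test between conditions was possible. Intervals are 95% exact (Clopper-Pearson) intervals and cover counting error only. No molecular identifiers are named, so reads may not be independent molecules.

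The libraries held 41811165 counts (Ctrl), 35959265 (RT) and 35424086 (RT + shHDAC6). Levels are CPM (counts scaled to a common library size) after TMM scaling, and a gene is called higher or lower when its scaled level differs at least 1.5-fold. HDAC6, the target of the hairpin, had 3098, 2383 and 2170 counts across Ctrl, RT and RT + shHDAC6, so that its scaled level in the knockdown library was 87.2% of that in RT (log2 ratio -0.20, interval -0.28 to -0.11). The study reports lower HDAC6 mRNA by qPCR and lower HDAC6 protein by Western blotting in its knockdown cells. Of 11 urothelial and epithelial markers, 8 had at least 100 counts in every library, with a summed level of 392 CPM (Ctrl), 476 (RT) and 369 (RT + shHDAC6), whereas the 3 uroplakin genes UPK1B, UPK2 and UPK3A had at most 3 counts. KRT7 and KRT18 made up most of that sum and had log2 ratios of 0.56 and 0.62 in RT against Ctrl, while the other 6 lay between -0.27 (GATA3) and -0.67 (KRT19). In RT + shHDAC6 the level of KRT7 was 14.8% of that in RT, that of GATA3 47.7% and that of PPARG 51.9%. KRT18 stood at 104% of its level in RT, and KRT8, KRT19, EPCAM and CDH1 at 118% to 142%. The mesenchymal markers VIM and CDH2 had a higher summed level, 2834 CPM (Ctrl), 2467 (RT) and 2862 (RT + shHDAC6). Their log2 ratios in RT against Ctrl were -0.28 (VIM) and 0.78 (CDH2). In RT + shHDAC6 they stood at 124% (VIM) and 48.7% (CDH2) of their levels in RT. Of PTPRC, CD3E, PECAM1 and COL1A1, which mark blood, endothelial and stromal cells, 2 had at least 100 counts in every library, CD3E had at most 17, and their summed level was 118 (Ctrl), 79.8 (RT) and 94.8 (RT + shHDAC6). The share of counts on mitochondrially encoded genes was 3.75% (Ctrl), 6.09% (RT) and 5.51% (RT + shHDAC6), and the part of these shares and marker levels in the differences below was not tested.

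The first comparison asked how irradiated T24 cells differ from unirradiated ones. In RT, 20 of the 28 snoRNA host genes were higher than in Ctrl, 1 was lower and 7 were neither, whereas 14.7% of all 20527 genes compared were higher and 20.5% were lower. The median host gene stood at 1.70-fold its Ctrl level, a log2 ratio of 0.77, against a median log2 ratio of -0.06 over all genes compared. The highest ratios belonged to ZFAS1, SNHG17, SNHG15 and SNHG12 among genes with at least 100 counts, and 2 of the most counted hosts, SNHG29 and SNHG14, had nearly equal levels in RT and Ctrl. Among the 23 hosts with at least 100 counts, 17 were higher, 0 were lower, 4 were at least 2-fold higher, and 21 had an interval wholly above 0. Of all 12733 genes at that count, 542 were at least 2-fold higher and 5531 had an interval above 0.

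Other long non-coding RNA genes give the background for this class of transcript. Of 677 such genes with at least 100 counts that are no snoRNA hosts of this group, 11.1% were higher in RT and 19.9% were lower, with a median log2 ratio of -0.04. Of all genes at that count, 15.8% were higher and 10.1% were lower. Long non-coding RNAs together took 1.32% of the counts (Ctrl), 1.16% (RT) and 1.23% (RT + shHDAC6), whereas the host genes took 959, 1203 and 1251 CPM when scaled by library totals. TMM shifted every log2 ratio of RT against Ctrl by 0.22 relative to library totals, and with library totals 14 hosts were higher and 2 lower, against 8.48% and 31.3% of all genes.

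ZFAS1, which carries the SNORD12 family of snoRNAs and lies antisense to the start of ZNFX1, had the highest ratio of the hosts with at least 100 counts. On chromosome 20 from 49278178 to 49299600 on the plus strand, it had 649 counts (Ctrl), 1450 (RT) and 1287 (RT + shHDAC6). After scaling it was 3.02-fold higher in RT than in Ctrl (log2 ratio 1.59, interval 1.46 to 1.73). SNHG17, on the same chromosome (38419638 to 38435409, minus strand), is the host of the SNORA71 family. It had 925, 1797 and 1632 counts and was 2.63-fold higher in RT (log2 ratio 1.39, interval 1.28 to 1.51). The RT library was the highest and Ctrl the lowest for both genes, with RT + shHDAC6 closer to RT than to Ctrl.

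SNHG15, the host of SNORA9 on chromosome 7 (44983019 to 44986961, minus strand), had 677, 1257 and 1152 counts and was 2.51-fold higher in RT (log2 ratio 1.33, interval 1.19 to 1.46). SNHG12, the host of SNORA16A, SNORA44, SNORA61 and SNORD99 on chromosome 1 (28578538 to 28583132, minus strand), had 694, 1210 and 1042 counts and was 2.36-fold higher in RT (log2 ratio 1.24, interval 1.101 to 1.37). These 4 genes lie on 3 chromosomes and differ in the class of snoRNA they carry, since ZFAS1 holds box C/D RNAs, SNHG17 and SNHG15 hold box H/ACA RNAs and SNHG12 holds both. SNHG3 lies close to SNHG12 on the plus strand (28505980 to 28510892) and had a lower ratio. It is the host of SNORA73A and SNORA73B, with 3805, 4616 and 4757 counts and a log2 ratio of 0.71 (interval 0.65 to 0.78).

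Of the other hosts with at least 100 counts, 12 more besides SNHG3 were higher in RT. SNHG7, which carries SNORA17A and SNORA17B, had 803, 1185 and 1163 counts across Ctrl, RT and RT + shHDAC6 (log2 ratio of RT to Ctrl 0.997, interval 0.87 to 1.13). EPB41L4A-AS1, the host of SNORA13, had 536, 778 and 623 counts (0.97, interval 0.81 to 1.13). SNHG5, the host of SNORD50B, had 425, 596 and 677 counts (0.92, interval 0.74 to 1.11). In all 3 the scaled level in RT was close to 2-fold that in Ctrl, and among them only SNHG5 had a higher scaled level in RT + shHDAC6 than in RT.

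SNHG4, which carries SNORA74A and SNORA74D and shares exons with MATR3, had 1388, 1920 and 1692 counts (log2 ratio 0.90, interval 0.80 to 1.004). SNHG20, the host of the small Cajal body RNA SCARNA16, had 199, 272 and 325 counts (0.89, interval 0.62 to 1.16). SNHG32, the host of SNORD48 and SNORD52, had 1427, 1917 and 1936 counts (0.86, interval 0.76 to 0.96). SNHG20 had the fewest counts of these 3 genes and the widest interval. SNHG1, which carries SNORD22, SNORD25 and others and was first described as the host of the U22 snoRNA, had 2733, 3567 and 3719 counts (0.82, interval 0.75 to 0.89). SNHG8, the host of SNORA24, had 265, 342 and 343 counts (0.80, interval 0.57 to 1.04). SNHG19, the host of SNORD60, had 88, 108 and 101 counts (0.73, interval 0.31 to 1.15). The intervals of SNHG8 and SNHG19 reached below 1.5-fold, although their point values passed it.

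GAS5, on chromosome 1 from 173858559 to 173868882 on the minus strand, was the most counted host after SNHG29 in RT. It had 4095, 4805 and 4777 counts, a 1.59-fold difference between RT and Ctrl (log2 ratio 0.67, interval 0.61 to 0.73). SNHG10, the host of SCARNA13, had 111, 130 and 127 counts (0.66, interval 0.29 to 1.04). SNHG6, the host of SNORD87, had 902, 1023 and 925 counts (0.62, interval 0.49 to 0.75). GAS5, SNHG10 and SNHG6 lie just past the 1.5-fold line and dropped below it with library totals, where their log2 ratios were 0.45, 0.45 and 0.40. SNHG3 and SNHG19 did so as well, at 0.50 and 0.51.

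The remaining 6 hosts with at least 100 counts were within 1.5-fold of Ctrl. SNHG30, the host of SNORD7, had 109, 118 and 153 counts (log2 ratio 0.55, interval 0.16 to 0.94), and SNHG11, the host of SNORA60, had 178, 182 and 155 counts (0.47, interval 0.16 to 0.77). SNHG16, the host of the SNORD1 family, had 4209, 4090 and 4256 counts (0.39, interval 0.33 to 0.46). SNHG26, the host of SNORD93, had 387, 372 and 406 counts (0.38, interval 0.17 to 0.59). Each of these 4 still had an interval above 0 on the TMM scale. SNHG29, the host of SNORD49A, SNORD49B and SNORD65, had 11512, 8632 and 9554 counts (0.02, interval -0.02 to 0.06). SNHG14, the long imprinted transcript of the Prader-Willi region that carries the SNORD116 and SNORD115 arrays, had 3918, 2812 and 3418 counts (-0.04, interval -0.11 to 0.03). The sign of these last ratios depended on the scaling, which placed SNHG29 between -0.20 and 0.08 and SNHG14 between -0.26 and 0.02.

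The hosts with fewer than 100 counts carry little precision. SNHG9 had 9, 17 and 19 counts across Ctrl, RT and RT + shHDAC6, SNHG25 had 6, 12 and 19, and SNHG21 had 19, 23 and 38, and these 3 complete the 20 called higher in RT. SNHG31 had 18, 5 and 8 counts and was the only host called lower, and SNHG22 had 22, 12 and 11. None of these 5 had more than 38 counts in any library, so a few reads decide each call.

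**Figure D1:**
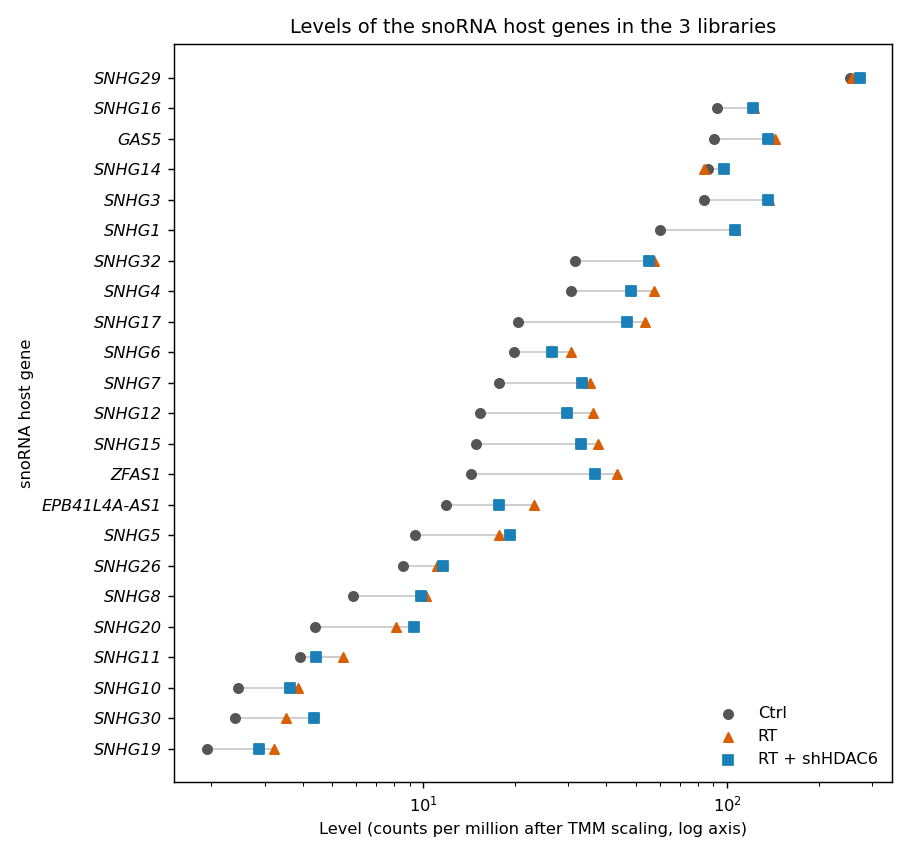
Levels of the 23 snoRNA host genes with at least 100 counts (y axis) in Ctrl (circles), RT (triangles) and RT + shHDAC6 (squares), as CPM after TMM scaling on a log axis, ordered by the level in Ctrl. The RT and RT + shHDAC6 symbols lie together to the right of the Ctrl circle for most genes, and for SNHG29 and SNHG14 all 3 symbols nearly coincide.

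Summed over all 31 host genes, the counts were 40117 (Ctrl), 43250 (RT) and 44321 (RT + shHDAC6). The summed level was 885 CPM in Ctrl, with an interval of 876 to 893. It was 1289 in RT, with an interval of 1277 to 1302, and 1266 in RT + shHDAC6, with an interval of 1254 to 1278. RT was thus 1.46-fold above Ctrl in the sum, less than the median gene, and SNHG29 alone made up 28.7% of the host counts in Ctrl and 19.96% in RT. Without SNHG29 the sum was 1.64-fold higher. In bulk RNA a higher level in every cell and a larger share of cells with a high level cannot be told apart.

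The order of the hosts by level depended on which length was used. Per kilobase of the canonical transcript, SNHG29 was highest in Ctrl with a level of 573 CPM, followed by SNHG16 at 186, GAS5 at 118, SNHG1 at 51.9, SNHG3 at 38.1 and SNHG32 at 29.9. In RT the same 6 genes had levels of 581, 245, 187, 91.5, 62.5 and 54.3 per kilobase. Per kilobase of all annotated exons in RT, the values drew together, with SNHG3 at 33.7, SNHG32 at 31.7, GAS5 at 29.0, SNHG29 at 28.8, SNHG1 at 26.7 and SNHG16 at 21.1. SNHG29 and SNHG16 have many annotated exons outside the canonical transcript, so that no single order of levels holds for both lengths.

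In 11 hosts more than 10% of the exon length is shared with another annotated gene. The library kits named in the labels and in the study's methods are both stranded. The strand setting of the counting is not given in the sources used here, so the counts of these hosts could include reads of those genes. Among the 11 is SNHG28, which had 0 counts and was not compared. The share was 72.9% in SNHG21, which had at most 38 counts in any library. It was 58.9% in SNHG6, with MCMDC2 on the opposite strand, 51.2% in EPB41L4A-AS1, with EPB41L4A, and 41.0% in ZFAS1. It was 37.6% in SNHG8, with PRSS12, 30.3% in SNHG7, with DIPK1B, and 28.5% in SNHG16. SNHG17, SNHG15, SNHG1, SNHG19 and SNHG11 share no exon base with a gene other than snoRNAs, which this measure left out. Without the 10 compared hosts that share over 10%, 11 of the 18 remaining hosts were higher in RT and 1 was lower, against 14.7% and 20.5% of all genes. This alternative was added after the data were seen.

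Several host genes of this kind are known to begin transcription at a 5′ terminal oligopyrimidine tract, the C followed by a run of pyrimidines that also opens the messenger RNAs of ribosomal proteins. The RefSeq start sequences (GRCh38.p14) were searched on the transcribed strand for a run of at least 5 pyrimidines that opened with C within 2 bases of the annotated start. Of 27 hosts with a start sequence, 8 (29.6%) held such a tract, SNHG18 with its few counts among them. The shares were 8.53% of 35116 promoters of the same length and 37.1% of 62 promoters of ribosomal protein genes. Since the messenger RNAs of ribosomal proteins are known to open with the tract, the search missed most tracts in that set. A host without a tract by this rule may therefore still have one. SNHG6, SNHG9, SNHG15 and SNHG25 were not searched. The palindrome CACGTG, searched over the whole promoter entry, was in 2 of the 27 (7.41%) and in 7.26% of all promoters. The start sequences below are shown because these 7 hosts with at least 100 counts and a tract were all higher in RT, with log2 ratios from 0.73 to 1.59. They run from 10 bases before to 30 bases from the annotated start, 5′ to 3′, with the tract in capitals. SNHG29 and SNHG16, which hold no tract by this rule and were not higher in RT, close the set. They do not stand for all hosts without a tract, of which 8 of 14 with at least 100 counts were higher. Of all genes at that count, 15.8% were higher. In both, a run of pyrimidines that opens with C lies some bases from the annotated start, outside the window searched.
ZFAS1 (chr20:49278632-49278671, plus strand): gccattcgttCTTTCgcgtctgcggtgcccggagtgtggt
SNHG12 (chr1:28581844-28581883, minus strand): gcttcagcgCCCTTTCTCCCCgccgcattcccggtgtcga
SNHG7 (chr9:136728155-136728194, minus strand): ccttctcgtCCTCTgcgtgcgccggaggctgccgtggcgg
SNHG5 (chr6:85678704-85678743, minus strand): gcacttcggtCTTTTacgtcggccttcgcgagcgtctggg
SNHG4 (chr5:139274091-139274130, plus strand): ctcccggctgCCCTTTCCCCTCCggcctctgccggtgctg
SNHG32 (chr6:31834906-31834945, plus strand): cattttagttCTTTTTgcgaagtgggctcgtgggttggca
SNHG19 (chr16:2155329-2155368, minus strand): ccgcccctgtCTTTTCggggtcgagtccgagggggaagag
SNHG29 (chr17:16438977-16439016, plus strand): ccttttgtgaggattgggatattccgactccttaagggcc
SNHG16 (chr17:76557754-76557793, plus strand): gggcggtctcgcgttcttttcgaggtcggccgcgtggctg

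The hosts without a tract by this rule were also mostly higher in RT. Among 14 such hosts with at least 100 counts, 8 were higher, against 15.8% of all genes at that count. Their log2 ratios ran from -0.04 to 1.39 and their median was 0.66, against 0.92 among the 7 with a tract. SNHG17, with the second highest ratio, was in the group without. The tract is read at a start taken from 1 reference transcript, and another start could change the call. The SNHG14 window began at 24823598 on chromosome 15, far before the annotated gene start at 24978583. The GAS5 window, from 173869016 to 173869055, lay outside the gene, which ends at 173868882. The group without a tract may also hold tracts that the search missed. No conclusion on the tract is therefore drawn from the medians of the groups. Between RT + shHDAC6 and RT, 0 hosts of either group were past 1.5-fold, and the medians were -0.16 with a tract and -0.01 without. Of all genes with at least 100 counts, only 3.27% were higher and 5.76% lower in that comparison.

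The snoRNAs themselves are mostly too short and lack the poly(A) tail needed to be captured in an mRNA library, so their rows report on few reads. GENCODE places 144 snoRNA rows of the table within 30 of the hosts, of which 37 had a count, 107 were at 0 in all 3 libraries and 8 reached 20 counts. No row was matched to a snoRNA of GAS5, so the snoRNAs that GAS5 is known to carry are not in these counts or sums. A count of 0 allows up to 3 counts, or a level of 0.0662 CPM (Ctrl), 0.0894 (RT) and 0.0857 (RT + shHDAC6). This limit holds only where all reads of a row were counted. Of the 107 rows at 0, 60 lie in an annotated exon of the host. How the counting treated reads shared with the host was not tested, so no limit is drawn for those rows. The 144 rows summed to 546 counts (Ctrl), 713 (RT) and 688 (RT + shHDAC6), a log2 ratio of RT to Ctrl of 0.82 (interval 0.66 to 0.98). Reads of a mature snoRNA and of unspliced host RNA cannot be told apart in these rows, and 85 of them overlap an annotated exon of the host.

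Of the 8 snoRNAs that reached 20 counts, 7 had a point ratio past 1.5-fold in RT and SNORA73B did not. Of all genes compared, which had at least 10 counts and so passed a different filter, 14.7% were higher. SNORD99 and SNORD93 reached 20 counts only in the irradiated libraries, so the filter itself favours a higher ratio in RT for them. SNORD99, in SNHG12, had 12, 33 and 27 counts across Ctrl, RT and RT + shHDAC6 (log2 ratio of RT to Ctrl 1.89, interval 0.90 to 2.98). SNORD12B, in ZFAS1, had 44, 86 and 84 counts (1.40, interval 0.86 to 1.96), close to the 1.59 of its host. SNORD93, in SNHG26, had 11, 21 and 21 counts (1.37, interval 0.25 to 2.57), whereas its host stood at 0.38. SNORD104, in SNHG25, had 51, 69 and 63 counts (0.87, interval 0.33 to 1.42), more than the 6, 12 and 19 counts of its short host. The box C/D snoRNAs fold so that box C near the 5′ end and box D near the 3′ end meet, and they guide ribose methylation. Their sequences in GENCODE are given to show the elements that define the rows, with the first GATGA, the core of box C, and the last CTGA, box D, in capitals.
SNORD12B (ZFAS1, chr20:49280319-49280409, plus strand): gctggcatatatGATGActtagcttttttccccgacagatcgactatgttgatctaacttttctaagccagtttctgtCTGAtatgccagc
SNORD99 (SNHG12, chr1:28578749-28578822, minus strand): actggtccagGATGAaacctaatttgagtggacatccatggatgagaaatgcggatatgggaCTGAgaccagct
SNORD93 (SNHG26, chr7:22856613-22856686, plus strand): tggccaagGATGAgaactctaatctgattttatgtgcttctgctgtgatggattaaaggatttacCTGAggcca
SNORD104 (SNHG25, chr17:64146083-64146152, plus strand): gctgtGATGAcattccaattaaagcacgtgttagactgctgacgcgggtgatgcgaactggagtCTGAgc

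The other 4 are box H/ACA snoRNAs, which guide the change of uridine to pseudouridine or, like SNORA73B, take part in the cleavage of ribosomal RNA precursors. SNORA71B, in SNHG17, had 89, 174 and 148 counts (log2 ratio of RT to Ctrl 1.40, interval 1.03 to 1.79), close to the 1.39 of SNHG17. SNORA71C, in the same gene, had 45, 77 and 69 counts (1.21, interval 0.66 to 1.77), and SNORA71A had 37, 46 and 51 counts (0.75, interval 0.09 to 1.41). The SNORA71 copies are similar in sequence, so the split of reads among them is uncertain. SNORA73B, in SNHG3, had 152, 119 and 124 counts (0.08, interval -0.28 to 0.44), below the 0.71 of its host. SNORA71A and SNORA71C are shown with the closing ACA box in capitals, since their likeness bears on the counts.
SNORA71A (chr20:38427309-38427442, minus strand): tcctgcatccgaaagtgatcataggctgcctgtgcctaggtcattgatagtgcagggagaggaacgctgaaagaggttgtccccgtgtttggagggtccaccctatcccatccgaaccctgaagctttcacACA
SNORA71C (chr20:38429670-38429803, minus strand): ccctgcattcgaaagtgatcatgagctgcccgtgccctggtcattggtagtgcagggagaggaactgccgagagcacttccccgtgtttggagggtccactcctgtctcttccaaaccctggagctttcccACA

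**Figure D2:**
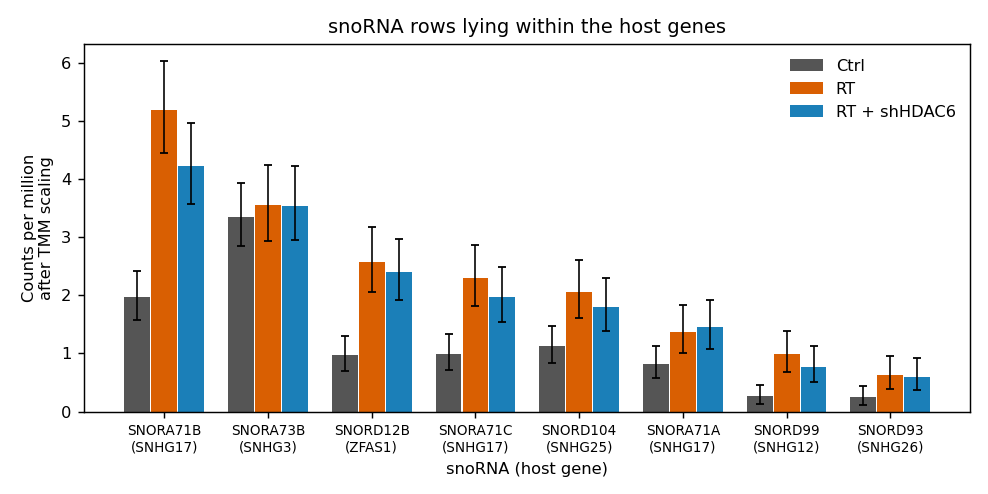
Level of the 8 snoRNA rows that reached 20 counts (x axis, host gene in brackets) in Ctrl, RT and RT + shHDAC6, in CPM after TMM scaling (y axis, from 0), with 95% counting intervals. Both irradiated bars stand above the Ctrl bar for 7 of the rows, while the 3 SNORA73B bars overlap within their intervals.

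The second comparison asked what the HDAC6 hairpin changed in irradiated cells. In these libraries the HDAC6 RNA of RT + shHDAC6 stood at 87.2% of its level in RT. The host genes differed little between RT + shHDAC6 and RT. Of 28 compared, 3 were higher and 0 were lower, whereas 11.2% of all genes were higher and 11.3% were lower. The 3 were SNHG21, SNHG25 and SNHG31, each with at most 38 counts, and of the 23 hosts with at least 100 counts 0 were past 1.5-fold. The median log2 ratio was -0.05 over the hosts and -0.01 over all genes, and with library totals these medians were 0.03 and 0.08. At 100 counts or more the background was lower as well, with 3.27% of all genes higher and 5.76% lower.

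Within 1.5-fold, 8 of the 23 hosts with at least 100 counts had an interval below 0 and 2 had an interval above 0. Of all 12733 genes at that count, 4110 had an interval below 0 and 3170 above 0, so the share of hosts below 0 was near the background and is given as a description. These counts hold on the TMM scale, which shifted every log2 ratio of this comparison by -0.08 relative to library totals. With library totals the intervals of GAS5, SNHG15 and SNHG6 hold 0. Those of SNHG1, SNHG3, SNHG16, SNHG5, SNHG20 and SNHG30 then lie above 0, so the balance depends on the scaling. EPB41L4A-AS1 had the lowest ratio, 1.30-fold lower in RT + shHDAC6 than in RT (log2 ratio -0.38, interval -0.54 to -0.23). SNHG12 stood at -0.28 (interval -0.40 to -0.16), SNHG4 at -0.24 (interval -0.34 to -0.15), ZFAS1 at -0.23 (interval -0.34 to -0.12) and SNHG6 at -0.21 (interval -0.34 to -0.08). SNHG17 at -0.20 (interval -0.30 to -0.10), SNHG15 at -0.19 (interval -0.30 to -0.07) and GAS5 at -0.07 (interval -0.13 to -0.01) complete the 8. The 4 hosts with the highest ratios in RT against Ctrl were all among them. The RT library enters both comparisons, with opposite sign.

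On the TMM scale, the 2 hosts with an interval above 0 were, among the 23 with at least 100 counts, the 2 whose intervals held 0 in RT against Ctrl. SNHG14 had a log2 ratio of 0.22 (interval 0.15 to 0.29) and SNHG29 of 0.08 (interval 0.04 to 0.13). The ratios of the remaining hosts with at least 100 counts ran from -0.29 for SNHG11 (interval -0.61 to 0.02) to 0.31 for SNHG30, and their intervals held 0 on that scale. SNHG1 at -0.0019, SNHG16 at -0.0047, SNHG3 at -0.02, SNHG32 at -0.05 and SNHG8 at -0.06 changed sign with the scaling, as did GAS5. The summed level of all hosts differed by -0.03 on the log2 scale (interval -0.05 to -0.01), and that of their snoRNA rows by -0.11 (interval -0.27 to 0.04).

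Against Ctrl, RT + shHDAC6 gave host levels close to those of RT against Ctrl, with the Ctrl library in common. Of the 28 hosts, 18 were higher and 2 were lower, against 14.0% and 20.6% of all genes. The median log2 ratio was 0.72, and all 23 hosts with at least 100 counts lay above the all-gene median of -0.05. ZFAS1 stood at 1.36, SNHG17 at 1.19, SNHG15 at 1.14, SNHG20 at 1.08, SNHG5 at 1.04, SNHG12 at 0.96 and SNHG7 at 0.91. SNHG30, which was within 1.5-fold in RT, stood at 0.86, while SNHG6 at 0.41, SNHG19 at 0.57 and SNHG10 at 0.57 were within 1.5-fold here. The 2 lower hosts were SNHG22 and SNHG31, with at most 22 counts in any library.

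Protein-coding genes that carry snoRNAs in their introns offer a comparison of the same gene architecture. In RT against Ctrl, 4 of 30 such genes (13.3%, against 14.7% of all genes) were higher and 1 was lower (against 20.5%, or 10.1% at 100 counts or more). The median log2 ratio was -0.12, or -0.34 with library totals. NOP56, itself a core protein of box C/D particles and a host, rose to 7400 counts from 5105 (log2 ratio 0.97, from 0.92 to 1.02 by its interval), and the helicase EIF4A1 had 408 and 569 counts (0.92, interval 0.73 to 1.102), with 42.1% of its exon length shared with other genes. TPT1, the translationally controlled tumour protein, fell from 25649 to 12091 counts (-0.65, interval -0.68 to -0.62), and RPL13A, of the large ribosomal subunit, had 25150 and 12549 counts (-0.57, interval -0.60 to -0.54). In RT + shHDAC6 against RT, 1 of the 30 was higher, TPT1 with 18965 counts and a ratio just past the line (0.59), and 0 were lower. Of all genes, 11.2% were higher and 11.3% lower, or 3.27% and 5.76% at 100 counts or more. RPS3, with 14276 and 17811 counts, stood at 0.26, EIF4A1 at -0.22 and the helicase EIF4A2 at -0.17.

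The ribosomal protein genes, whose messenger RNAs also open with a pyrimidine tract, had few calls in either comparison. In RT against Ctrl, 5 of 77 (6.49%, against 14.7% of all genes) were higher and 0 were lower (against 20.5%, or 10.1% at 100 counts or more). The median log2 ratio was -0.04, or -0.25 with library totals, and 21 of the 77 are in the list of protein-coding hosts. RPL36A, with 718 and 1012 counts, stood at 0.93 (interval 0.79 to 1.07), and it shares 22.4% of its exon length with other genes. At the other end were RPL13A and RPL24, the latter with 9743 and 5658 counts (-0.35). In RT + shHDAC6 against RT, 1 was higher, RPL24 with 10368 counts (0.81, interval 0.76 to 0.86), and 0 were lower. The shares of all genes were 11.2% and 11.3%, or 3.27% and 5.76% at 100 counts or more. The median was 0.10, RPL34 stood at 0.33, RPS15A at -0.23 and RPL5 at -0.13.

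The proteins that bind snoRNAs or help assemble the particles were called higher at a share near the background. In RT against Ctrl, 3 of 19 (15.8%, against 14.7% of all genes) were higher and 0 were lower (against 20.5%, or 10.1% at 100 counts or more). The median log2 ratio was 0.23 and came to 0.0079 with library totals. NOP56 was the highest, followed by DKC1, the pseudouridine synthase of box H/ACA particles, with 7508 and 8666 counts (0.64, interval 0.60 to 0.69). FBL, the methyltransferase of box C/D particles, had 5518 and 3594 counts (-0.18, interval -0.24 to -0.12), and NOP10, a box H/ACA protein, had 1316 and 920 counts (-0.08, interval -0.20 to 0.04). Between the irradiated libraries, 0 of 19 were past 1.5-fold and the median was 0.00046. Of all genes, 11.2% were higher and 11.3% lower, or 3.27% and 5.76% at 100 counts or more. The assembly factors ZNHIT3 and NUFIP1 stood at 0.26 and 0.23, RPAP3 at -0.17 and NOP10 at -0.08.

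The enzymes that open the intron and trim the snoRNA, among them the exosome, were called higher about as often as all genes. In RT against Ctrl, 3 of 18 (16.7%, against 14.7% of all genes) were higher and 0 were lower (against 20.5%, or 10.1% at 100 counts or more). The median log2 ratio was 0.29, or 0.07 with library totals. The exosome subunits EXOSC5, with 579 and 708 counts, and EXOSC4, with 544 and 659 counts, stood at 0.73 and 0.71, and EXOSC4 shares 56.7% of its exon length with other genes. The exonuclease XRN1 had 5114, 2671 and 4067 counts across Ctrl, RT and RT + shHDAC6, a log2 ratio of -0.50 in RT against Ctrl (interval -0.57 to -0.43) and 0.54 in RT + shHDAC6 against RT (interval 0.47 to 0.62). DBR1, the lariat debranching enzyme, had 1357, 930 and 1272 counts, with ratios of -0.11 and 0.39 in the same order. Between RT + shHDAC6 and RT, 0 of 18 were past 1.5-fold, the median was 0.06, EXOSC4 stood at -0.18 and EXOSC10 at -0.12. Of all genes, 11.2% were higher and 11.3% lower, or 3.27% and 5.76% at 100 counts or more.

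Factors of nonsense-mediated decay, the pathway that removes several host RNAs, were 3 of 16 higher (18.8%, against 14.7% of all genes) in RT against Ctrl. In that comparison 0 were lower (against 20.5%, or 10.1% at 100 counts or more), with a median log2 ratio of 0.24, or 0.02 with library totals. SMG8, a regulator of the kinase SMG1, had 1123 and 1747 counts (1.07, interval 0.96 to 1.18), and DHX34, a helicase, had 2038 and 2827 counts (0.91, interval 0.82 to 0.99). UPF2, a core factor, had 4896 and 3142 counts (-0.20). For RT + shHDAC6 against RT, 0 of 16 were past 1.5-fold and the median was 0.03. Of all genes, 11.2% were higher and 11.3% lower, or 3.27% and 5.76% at 100 counts or more. UPF3B stood at 0.28, UPF2 at 0.27, SMG8 at -0.19 and DHX34 at -0.13.

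Some hosts share a start region with a protein-coding gene on the other strand. Within 1000 bases, 8 such head-to-head pairs were found, and their partners were not uniformly higher in RT. SNHG1 starts 51 bases from SLC3A2, the heavy chain of amino acid transporters, which had 6093, 10973 and 11372 counts and a log2 ratio of RT to Ctrl of 1.28 (interval 1.24 to 1.33), above the 0.82 of SNHG1. ZFAS1 starts 248 bases from ZNFX1, which had 5752, 4805 and 4470 counts and a ratio of 0.18 (interval 0.12 to 0.23), far below the 1.59 of ZFAS1. GAS5 starts 800 bases from ZBTB37, with 1877, 1556 and 1658 counts and a ratio of 0.16 against 0.67. SNHG19 starts 293 bases from TRAF7, with 6687, 4737 and 4778 counts and a ratio of -0.06 against 0.73.

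The other 4 pairs include a host with fewer than 100 counts. SNHG9 starts 54 bases from RPS2, with 33013, 20640 and 24607 counts and a log2 ratio of -0.24, while SNHG9 itself had 9, 17 and 19 counts. BARD1, 498 bases from SNHG31, stood at 0.14, ACAA2, 12 bases from SNHG22, at -0.44, and SEMA5A, 95 bases from SNHG18, at -0.60 with 92 and 45 counts. Among the 8 partners only SLC3A2 was higher and only SEMA5A was lower past 1.5-fold in RT against Ctrl. In RT + shHDAC6 against RT the partners of SNHG1 and ZFAS1 stood at -0.01 and -0.17, against -0.0019 and -0.23 for the hosts.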

How the data were processed

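Poly(A)-type RNA-seq of 3 T24 libraries, 1 for each condition, was used. Per the labels and the study's methods, the authors removed adapters with cutadapt, mapped to GRCh38 with STAR and summarised over GENCODE release 28 with featureCounts. The STAR version was 2.6.1a in the submitters' processing notes, whereas the study's methods give another version. The deposited values are raw counts. Which strand setting was used, and how multi-mapping reads were treated, is not given in the sources used here. The library kit differs between the labels and the study's methods, though both kits are stranded. Symbols were matched for 57754 of 58381 identifiers with GENCODE release 44 and a table of gene names.

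Counts were scaled with TMM factors from edgeR 4.0.16 (R 4.3.3), a count of 0 was set to 0.5, and genes with at least 10 counts in 1 library were compared with a 1.5-fold rule in Python 3.11.15 (pandas 2.3.3, numpy 2.4.6) with Clopper-Pearson intervals from scipy 1.17.1. The fold rule was checked on simulated libraries that held counting noise only, so the check does not cover variation between cultures. The study's NOISeq probability was not used, because it rests on noise drawn from each library itself. Groups follow the sample labels. Named were all hosts with at least 100 counts in 1 library, and from each other list the 2 highest and the 2 lowest ratios of each of the first 2 comparisons among genes with at least 100 counts. Some genes covered by this rule are not reported. Members and lists were chosen with earlier results of these data known. Alternatives covered the scaling (library totals, upper quartile, and median-of-ratios factors from DESeq2 1.42.0), the replacement of zeros, the filter on low counts, a 2-fold rule and overlapping exons. Start sequences came from RefSeq and snoRNA sequences from GENCODE release 44.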

Additional observations from a re-analysis of the deposited data

How the results depend on the processing

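No paired analysis was possible because each condition has 1 library and the labels carry no replicate numbers. No result changed from higher to lower past the fold under the alternatives run, and zeros set to 1 moved none. Library totals gave 2 hosts lower in RT against Ctrl, a median log2 ratio of 0.55, and summed log2 ratios of 0.33 for RT against Ctrl, 0.057 for RT + shHDAC6 against RT and 0.38 for RT + shHDAC6 against Ctrl. In the same order the summed ratios were 0.49, 0.00054 and 0.49 with upper quartile factors. With median-of-ratios factors they were 0.60 (RT against Ctrl) and 0.57 (RT + shHDAC6 against Ctrl). Those factors left 1 host lower in RT + shHDAC6 against Ctrl, against 18.4% of all genes. The sign of the summed ratio of RT + shHDAC6 against RT thus depends on the scaling. Without a filter on low counts 3 hosts were lower in RT against Ctrl, against 23.7% of all genes in that setting. With at least 100 counts, 0 were lower in RT against Ctrl, 0 higher in RT + shHDAC6 against RT and 0 lower in RT + shHDAC6 against Ctrl, since the hosts with few counts leave. Of all genes at that count, the shares in the same order were 10.1%, 3.27% and 11.7%. A 2-fold rule gave 6 higher in RT against Ctrl, 0 higher in RT + shHDAC6 against RT, and 8 higher and 0 lower in RT + shHDAC6 against Ctrl. In the same order, the shares of all genes were 4.99%, 5.04%, 4.97% and 10.5%. Without the hosts that share over 10% of their exon length, chosen after the data were seen, 11 of 18 were higher in RT against Ctrl and 10 in RT + shHDAC6 against Ctrl. The shares of all genes were 14.7% and 14.0%. Among values of single genes and other lists, library totals moved 58 and left 56 within their spread, median-of-ratios factors moved 9 and upper quartile factors 5.

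With 1 library for each condition, the variation between cultures is unknown, and hosts under 100 counts carry wide counting intervals.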
